A study of Homo sapiens with 12 samples.

Results

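The keratin genes were all rows of the gene count table whose symbol was KRT followed by a number and, in some cases, a letter from A to C. The rule found 55 genes among 60591 in the table, of which 29 encode type I and 26 type II keratins. Pseudogenes, antisense genes and keratin-associated proteins were outside the rule.

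Keratins are the intermediate filament proteins of epithelial cells. A filament is built from pairs of an acidic type I and a basic type II chain, and which pairs a cell makes depends on its kind. KRT8 and KRT18 form the filaments of simple, single-layered epithelia, together with KRT7 and KRT19 in ducts and airways. KRT5 pairs with KRT14 in the basal layer of stratified epithelia, where KRT15 is also made, while KRT6A, KRT6B, KRT6C, KRT16 and KRT17 are called stress keratins because they are induced in skin by wounding and in proliferative disease. KRT4 and KRT13 are the pair of the suprabasal layer of the oesophagus and other internal stratified epithelia. In lung, simple keratins mark the alveolar and luminal airway cells, and KRT5, KRT14 and KRT15 mark the basal cells of the airway.

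The study asked whether drug-induced changes in gene expression accompany the different amounts of death that 2 lung cancer cell lines show after inhibition of the epidermal growth factor receptor (EGFR). PC9 and H1650 are established human non-small cell lung cancer lines whose genotype is labelled Wild-type, and per the study both carry an activating deletion in EGFR. Polyadenylated RNA was sequenced in 12 libraries, 2 biological replicates in each of 6 groups. These groups were PC9 and H1650 cells at 0 h in 0.1% DMSO (T0), the same lines after 36 h in 10 µM erlotinib, a reversible EGFR inhibitor, and the same lines after 36 h in 0.1 µM osimertinib, an irreversible one. Each line stands for 1 tumour, and no 36 h library without drug was analysed here, so a change after drug cannot be told apart from a change with 36 h of further culture. The doses of the drugs differed by molar amount, and the erlotinib and osimertinib groups of a line were set against the same T0 libraries.

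Libraries held 17961765 to 26346187 reads on genes, and 4.36 to 7.20% of them fell on mitochondrial genes. Levels are given as normalized CPM, reads scaled to a common library size. A count of 0 allowed up to 0.116 to 0.168 CPM, taking 3 reads as the limit, which covers counting error only. All 6 epithelial markers (EPCAM, CDH1, CLDN4, CLDN7, ELF3 and ESRP1) were expressed, with a sum of 1518 to 2634.5 CPM per library. General epithelial markers were thus present, while most markers of lung adenocarcinoma were not. Of 6 alveolar and lung adenocarcinoma markers 1 (NAPSA) passed 1 CPM in any group. The surfactant genes SFTPB, SFTPC and SFTPA1 and the lung factor NKX2-1 were each under 0.21 CPM, and SLC34A2 was at most 0.26 CPM. TP63, which marks basal cells, was at 3.99 CPM in PC9 at T0 and at 0.26 and 0.23 CPM after erlotinib and osimertinib, and at 0.50, 1.15 and 1.48 CPM in the same order in H1650. The sum of 4 squamous and basal markers was 4.95 to 9.98 CPM in PC9 and 59.4 to 139.7 CPM in H1650, mostly CLCA2. Of 5 fibroblast and 5 leukocyte markers 1 each passed 1 CPM in any group (COL1A1 and CD14), as did all 3 endothelial markers, with summed ranges of 10.1 to 45.9, 0.509 to 3.96 and 0.193 to 5.55 CPM. Their part in the keratin results was not tested, and in bulk RNA fewer cells of a type and less RNA per cell cannot be told apart.

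Promoter sequence was at hand for 34 of the 55 keratins and for 5 of the 19 that are described with values below (RefSeq, GRCh38.p14). The 250 bases before a RefSeq start are shown for KRT8, the keratin with the most reads in all, for KRT5, the basal keratin with the highest level per kilobase in PC9, and for KRT4, 1 of only 2 keratins that rose with both drugs in both lines. All 3 lie on the minus strand of chromosome 12, at chr12:52926470-52926719 for KRT8, chr12:52520395-52520644 for KRT5 and chr12:52814117-52814366 for KRT4. The KRT8 window lies well inside the gene as annotated in GENCODE 29, which begins at 52949954 on that strand. Which start the KRT8 reads came from was not tested. Capitals mark a match to the ETS motif CCGGAAGT, here on the opposite strand.
KRT8: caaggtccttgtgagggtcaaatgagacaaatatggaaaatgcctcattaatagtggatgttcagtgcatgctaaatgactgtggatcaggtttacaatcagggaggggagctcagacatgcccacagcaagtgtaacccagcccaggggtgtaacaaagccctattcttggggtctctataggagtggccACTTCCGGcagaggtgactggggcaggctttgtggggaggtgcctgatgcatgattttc
KRT5: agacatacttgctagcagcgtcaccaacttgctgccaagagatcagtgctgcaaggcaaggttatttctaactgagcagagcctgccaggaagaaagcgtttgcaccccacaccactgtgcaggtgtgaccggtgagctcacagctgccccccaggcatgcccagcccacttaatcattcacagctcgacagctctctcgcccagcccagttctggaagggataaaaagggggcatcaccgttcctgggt
KRT4: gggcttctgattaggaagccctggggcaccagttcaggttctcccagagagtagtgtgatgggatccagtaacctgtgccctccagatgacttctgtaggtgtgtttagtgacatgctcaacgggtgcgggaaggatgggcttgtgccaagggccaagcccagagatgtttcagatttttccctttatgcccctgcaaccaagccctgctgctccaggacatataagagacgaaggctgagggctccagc

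Over windows of 300 bases (250 before and 50 after a start), searched on both strands, the TATA box TATAAA stood in 55.3% of 38 keratin promoters and in 11.5% of all 35116 promoters. The GC box GGGCGG stood in 15.8% of the keratin promoters and in 45.0% of all. The ETS motif was in 2.63% against 4.14%, its keratin match being that of KRT8, 59 bases before the RefSeq start used here. The AP-1 motif TGANTCA matched in 0 of the 38 windows and in 7.71% of all. These are matches of letters only. The KRT5 and KRT4 windows matched none of the 4 motifs.

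Of the 55 keratins, 15 had no reads in any library. These were KRT2, KRT76 and KRT77 of the suprabasal and site-specific class, KRT25, KRT26, KRT28, KRT72, KRT73 and KRT74 of the hair follicle sheath, and KRT31, KRT35, KRT36, KRT37, KRT82 and KRT84 of the hair shaft. No simple-epithelial, basal or stress keratin was among them. Another 18 had reads but were too low to test, with at most 11 reads in any library: KRT20, KRT6C, KRT1, KRT3, KRT12, KRT24, KRT79, KRT27, KRT71, KRT75, KRT33A, KRT33B, KRT38, KRT39, KRT40, KRT85, KRT23 and KRT222. The intestinal keratin KRT20 was the least abundant of the 5 simple keratins, with at most 3 reads. KRT6C reached 11 reads, in an H1650 T0 library. KRT3, a corneal keratin, had 2 to 8 reads in every PC9 library and 0 in every H1650 library.

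The other 22 keratins passed the filter on low counts, 11 of each type. They were 4 of 5 simple, 3 of 3 basal, 4 of 5 stress, 5 of 13 suprabasal and site-specific, 5 of 17 hair shaft, 0 of 9 hair sheath keratins and KRT80. A member could pass through 1 group alone, so counts over the tested keratins do not describe all 55. Among them 17 had reads in all 12 libraries.

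**Figure D1:**
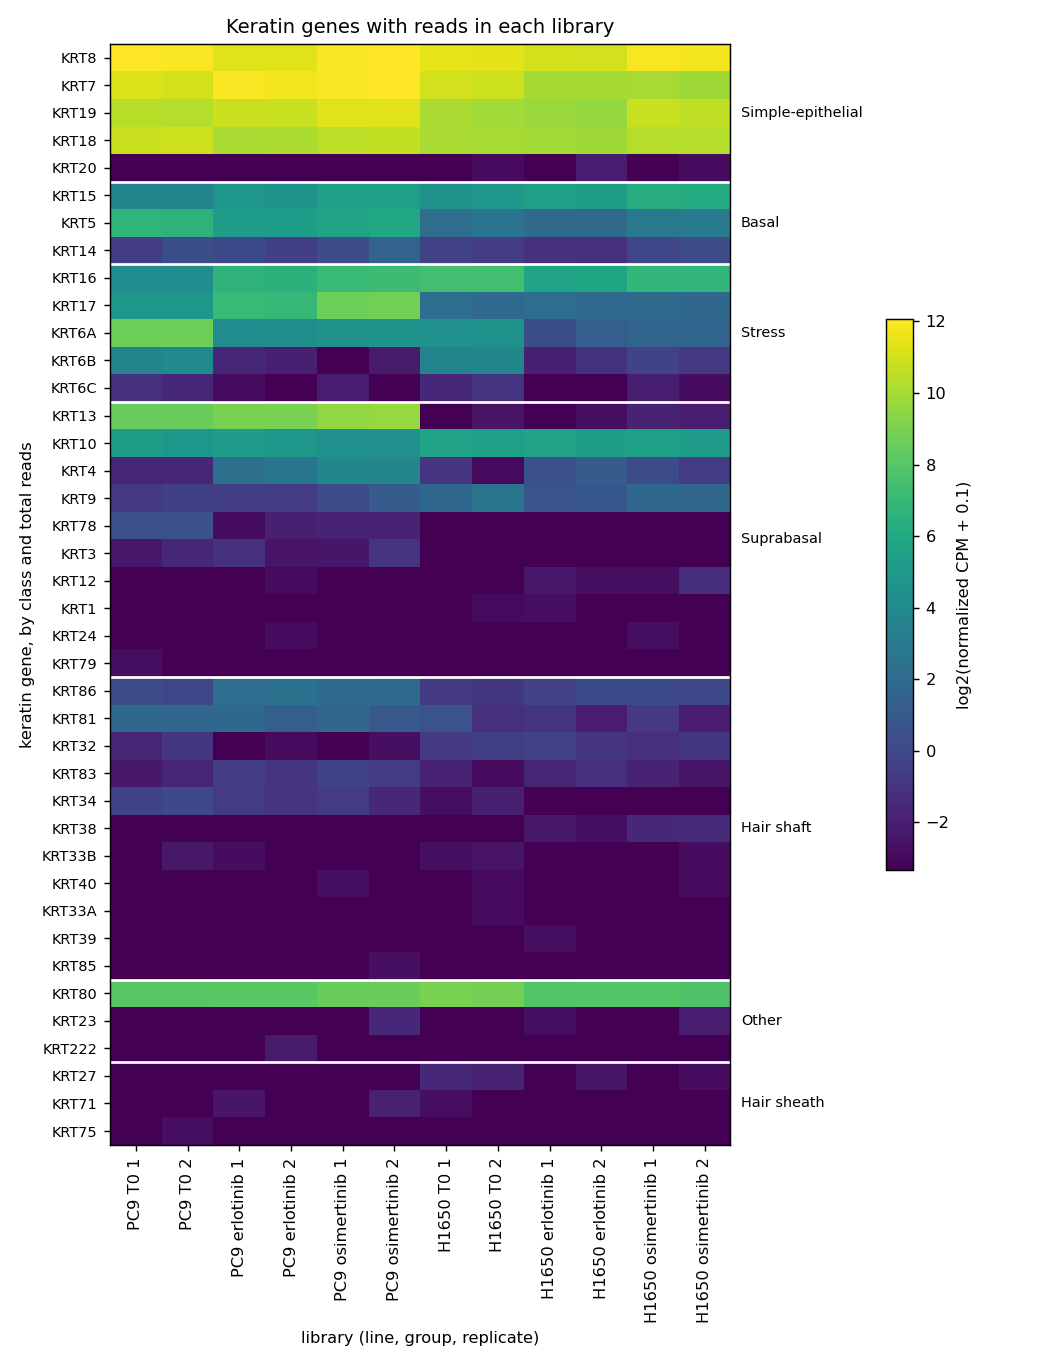
Level of the 40 keratins with reads in each of the 12 libraries, as log2 of normalized CPM + 0.1 (colour), by class and then by total reads. The rows of KRT7, KRT8, KRT18 and KRT19 are bright in all libraries, while those of KRT13, KRT17 and KRT6A differ between the lines and the hair keratins are dark.

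Keratins took 0.550 to 1.41% of all reads, and KRT7, KRT8, KRT18 and KRT19 took 86.7 to 94.0% of the keratin reads in every library. At T0 the summed level was 10874 ± 202 CPM (SD, n = 2) in PC9 and 7759 ± 335 CPM (SD, n = 2) in H1650. After osimertinib it was 14222 ± 631 CPM in PC9 and 8075 ± 520 CPM in H1650, and after erlotinib 10362 ± 274 and 5259.8 ± 106 CPM (SD, n = 2 each). The stress keratins held 4.15 to 4.32% of keratin reads in PC9 at T0 and 2.69 to 2.81% in H1650 at T0, and the basal keratins 1.03 to 1.10% and 0.348 to 0.442%. Sums are descriptions, since an exact permutation test of 2 libraries against 2 cannot go below 1 in 3.

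Levels of different keratins were compared only per kilobase. In PC9 at T0 the 4 simple keratins lay close together on the annotated length of the deposited table, from 574 ± 34.7 CPM per kb for KRT7 to 609 ± 6.56 CPM per kb for KRT18 (SD, n = 2). KRT7 and KRT19 (576 ± 17.1) differed by less than their spread. Their order rests on that length, which for KRT8 is 6881 bases. Over the longest transcript in GENCODE 29 (2862 bases for KRT8) KRT8 led with 1434 CPM per kb and KRT18 was the lowest of the 4 with 895 CPM per kb. KRT6A at 137 ± 1.02 and KRT13 at 128 ± 3.34 CPM per kb came next on the table's length and swapped places on the longest transcript. KRT80 followed at 61.7 ± 0.485 CPM per kb, then KRT5 at 24.8 CPM per kb.

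In H1650 at T0 the simple keratins were also on top, from 354 ± 2.79 CPM per kb for KRT18 to 502 ± 26 for KRT7 (SD, n = 2). KRT80 at 110.04 ± 5.88 and KRT16 at 70.1 ± 1.46 CPM per kb stood next, ahead of KRT10 at 20.5 ± 2.09 CPM per kb. KRT13 at 0.013 CPM per kb and KRT78 with no reads closed the list of the 19 described keratins.

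Each difference was tested by edgeR's quasi-likelihood test in 1 fit of all 12 libraries, with Benjamini-Hochberg adjustment over the 19108 genes tested, and is called at an adjusted p under 0.05. All adjusted p-values below come from that test, and each log2 fold change is given with its standard error (SE).

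At T0 17 of the 22 tested keratins differed between the lines, 5 higher and 12 lower in H1650 than in PC9, beside 69.6% of all genes called (35.8% higher, 33.8% lower). The 4 simple keratins were all lower in H1650. KRT18 differed most among them, with a log2 difference of -0.78 ± 0.07 (adjusted p = 4.09e-11), and KRT7 least, with -0.19 ± 0.07 (adjusted p = 0.0217). The KRT7 call was lost without PC9 T0 replicate 1 (-0.13) or H1650 T0 replicate 2 (-0.14).

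Larger differences at T0 lay in the stratified keratins. KRT5 was at 107 and 97.8 CPM in PC9 and at 4.43 and 5.94 CPM in H1650, 19.5-fold lower (log2 -4.29 ± 0.13, adjusted p = 1.65e-21). KRT13 had 14976 reads in the PC9 T0 libraries and 2 in those of H1650, a ratio of 8845 scaled to depth (95% counting interval 2448 to 73038). KRT78 had 53 reads in PC9 and none in H1650. With 3 reads over the 2 H1650 libraries together as the floor, it was 20.9-fold lower there or more. That value takes the PC9 count as exact, so it is not a 95% limit. Of the stress keratins KRT6A was 17.7-fold lower in H1650 (log2 -4.14 ± 0.10, adjusted p = 1.42e-23) and KRT17 6.74-fold lower (log2 -2.75 ± 0.12, adjusted p = 1.04e-17), and KRT6B was not called. In the other direction KRT16 was 9.91-fold higher in H1650 (log2 3.31 ± 0.09, adjusted p = 6.25e-22) and KRT80 1.78-fold higher (log2 0.83 ± 0.07, adjusted p = 2.44e-11). These genes are stratified or broadly epithelial keratins, and some were near 0 in 1 of the lines.

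The simple keratins did not move as a block after drug. All 4 changed with erlotinib in each line, 2 up and 2 down in PC9 and all 4 down in H1650. With osimertinib 3 of the 4 changed in PC9 (2 up, 1 down) and 4 in H1650 (3 up, 1 down). Of all 22 tested keratins, 15 changed in PC9 after erlotinib (8 up, 7 down; all genes 61.8% called, 32.7% up and 29.1% down) and 19 after osimertinib (12 up, 7 down; all genes 61.4%, 32.7% up and 28.7% down). In H1650 11 changed with each drug, 2 up and 9 down after erlotinib (all genes 36.5%, 18% up and 18.5% down) and 6 up and 5 down after osimertinib (all genes 35.7%, 17.8% up and 17.9% down). The median log2 change of the tested keratins was -0.07, 0.65, -0.43 and -0.09 in these 4 comparisons, against 0.07, 0.06, 0.01 and 0 over all genes tested.

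KRT8, the type II chain of simple epithelia, was at 4124 and 4086 CPM in PC9 at T0, 2506 and 2536 after erlotinib and 3964 and 4280 after osimertinib. Its H1650 values were 2929 and 2757 CPM at T0, 2130.2 and 2067 after erlotinib and 3864 and 3510.5 after osimertinib. The erlotinib libraries were the lowest in both lines, while the PC9 osimertinib libraries overlapped with T0. KRT8 fell by 0.70 on the log2 scale in PC9 (SE 0.07, adjusted p = 6.77e-10) and by 0.44 in H1650 (SE 0.07, adjusted p = 9.46e-06) after erlotinib. After osimertinib it rose in H1650 by 0.38 ± 0.07 (adjusted p = 7.45e-05), and in PC9 the log2 value was 0.01 ± 0.07 (95% interval -0.13 to 0.15, adjusted p = 0.965).

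KRT18, its type I partner, was at 1854 and 1882 CPM in PC9 at T0, 1119.7 and 1154 after erlotinib and 1453 and 1620.1 after osimertinib. It fell by 0.72 (SE 0.07, adjusted p = 2.9e-10) and 0.28 (SE 0.07, adjusted p = 0.000598) on the log2 scale. In H1650 it was at 1093 and 1081 CPM at T0, 961 and 950.3 after erlotinib and 1312 and 1283 after osimertinib, with no overlap between the 3 groups. The rise with osimertinib was 0.26 ± 0.07 (adjusted p = 0.00329). The fall with erlotinib was 0.19 on the log2 scale (SE 0.07, adjusted p = 0.0308), and it lost its call without any 1 of the 4 libraries compared (H1650 T0 or erlotinib, replicate 1 or 2), at adjusted p of 0.0879 to 0.121. The exons of KRT8 and KRT18 share 525 bases on opposite strands, and whether reads were counted by strand is not given in the sources used here, so reads in those bases cannot be told apart.

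The per-kb ratio of KRT8 to KRT18 was 0.968 to 0.998 in PC9 at T0 and after erlotinib and 1.18 to 1.22 after osimertinib. In H1650 it was 1.14 to 1.2 at T0, 0.970 to 0.989 after erlotinib and 1.22 to 1.31 after osimertinib. The erlotinib libraries were thus below the osimertinib libraries in both lines. The level of the ratio rests on the KRT8 length: over the longest transcripts it was 1.59 to 1.63 with erlotinib and 1.93 to 2.15 with osimertinib.

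KRT7, a type II keratin of ducts and airways, moved in opposite directions in the lines. It was at 2392 and 2196 CPM in PC9 at T0, 3949 and 3612 after erlotinib and 4030.2 and 4142 after osimertinib. H1650 cells had 2081 and 1934 CPM at T0, 1001 and 996 after erlotinib and 1044 and 921 after osimertinib. No drug library overlapped with the T0 libraries of its line. The log2 changes were 0.72 ± 0.07 and 0.83 ± 0.07 in PC9 (adjusted p = 1.56e-09 and 8.4e-11) and -1.01 ± 0.07 and -1.03 ± 0.07 in H1650 (adjusted p = 1.74e-11 and 1.26e-11). The difference between the lines was itself called, at -1.73 ± 0.10 for erlotinib (adjusted p = 1e-13) and -1.86 ± 0.10 for osimertinib (adjusted p = 2.02e-14), H1650 minus PC9. KRT7 shares 282 exon bases with its antisense gene KRT7-AS, which had 6585 reads in all beside 611801 for KRT7 and was called in the same direction as KRT7 in the 4 drug comparisons.

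KRT19, the smallest keratin and a type I partner of KRT7, was at 1373 and 1317 CPM in PC9 at T0, 1829.5 and 1741 after erlotinib and 2513 and 2671 after osimertinib. In the other line it was at 1097 and 995 CPM at T0, 847 and 776 after erlotinib and 1713 and 1526 after osimertinib. It rose in PC9 with both drugs (log2 0.41 ± 0.07 and 0.95 ± 0.07, adjusted p = 2.29e-05 and 6.88e-12). In H1650 it fell by 0.37 with erlotinib (SE 0.07, adjusted p = 0.00025) and rose by 0.63 ± 0.07 with osimertinib (adjusted p = 1.04e-07). The per-kb ratio of KRT7 to KRT19 was 1.11 to 1.14 in H1650 at T0 and 0.353 to 0.356 after osimertinib, the lowest of the 6 groups.

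**Figure D2:**
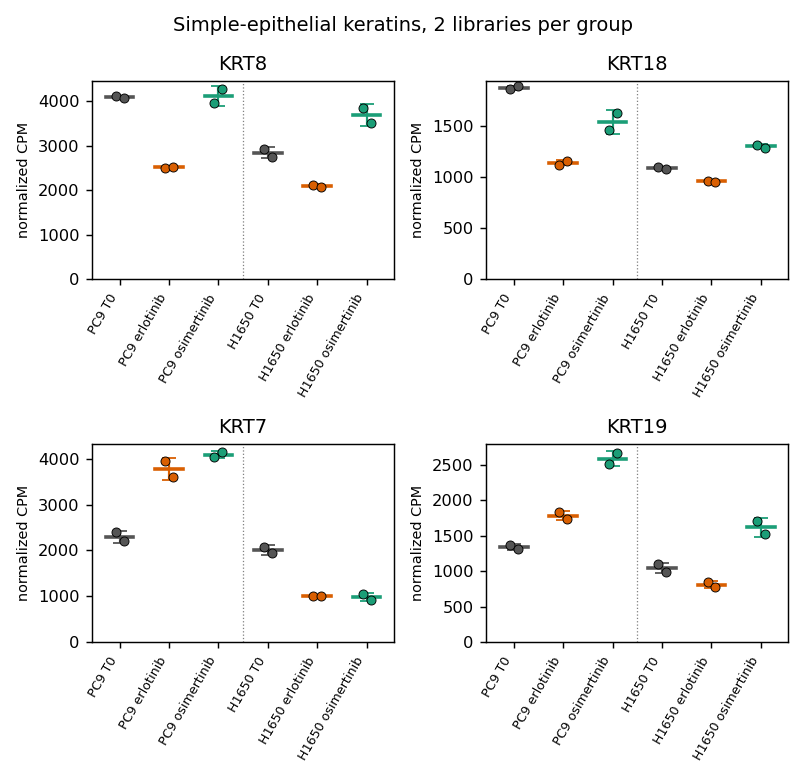
Normalized CPM of KRT8, KRT18, KRT7 and KRT19 (y axis, from 0) in the 6 groups; points are libraries, the thick line the mean and bars the SD of 2. KRT7 is above T0 with both drugs in PC9 and below it in H1650, and KRT8 is at its lowest with erlotinib in each line (2521 and 2098 CPM).

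The stress keratins did not move together. KRT6A and KRT6B fell with both drugs in both lines and were the only 2 of the 22 tested keratins lower in all 4 comparisons. KRT16 and KRT17 rose in PC9 with both drugs. In H1650 KRT16 fell with both, and KRT17 was not called with either.

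KRT6A, a type II stress keratin, was at 399 and 403 CPM in PC9 at T0, 18 and 20.3 after erlotinib and 24.3 and 24.8 after osimertinib. The T0 level was more than 10 times that of any drug library of the line. In H1650, where it started lower, it was at 22.3 and 23.0 CPM at T0, 1.19 and 2.33 after erlotinib and 2.96 and 3.03 after osimertinib. The falls were 20.9-fold and 16.3-fold in PC9 (log2 -4.38 ± 0.10 and -4.03 ± 0.10, adjusted p = 3.6e-23 and 8.54e-23). In H1650 they were 12.7-fold and 7.55-fold (log2 -3.66 ± 0.16 and -2.92 ± 0.14, adjusted p = 1.81e-16 and 2.98e-15). Without H1650 erlotinib replicate 2 the first of these H1650 values was -4.26.

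KRT6B, a close copy of KRT6A, was at 12.4 and 15.5 CPM in PC9 at T0 and 11.9 and 13.2 CPM in H1650 at T0, with no call between the lines (log2 -0.15 ± 0.19, adjusted p = 0.484). After erlotinib it was at 0.22 and 0.16 CPM in PC9 (log2 -6.17 ± 0.34, adjusted p = 3.48e-15) and 0.15 and 0.37 CPM in H1650 (log2 -5.52 ± 0.33, adjusted p = 2.92e-13). After osimertinib the PC9 libraries held 0 and 2 reads against 246 and 315 at T0, a ratio of 276 scaled to depth (95% counting interval 76.1 to 2285, adjusted p = 2.94e-15). The H1650 osimertinib libraries were at 0.76 and 0.49 CPM (log2 -4.32 ± 0.28, adjusted p = 2.07e-12). Without H1650 erlotinib replicate 2 the H1650 erlotinib value was -6.30.

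The coding sequences of KRT6A and KRT6B are 97.5% identical, and those of KRT6A and KRT6C 97.9%, so how the reads were shared among the 3 is uncertain. KRT6C had 7 and 5 reads in PC9 at T0 and 5 and 11 in H1650 at T0, and 0 to 3 in each drug library. All 3 were thus highest at T0 in each line, although KRT6C was too low to test.

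KRT16, a type I stress keratin that pairs with KRT6, was at 17.6 and 17.4 CPM in PC9 at T0, 101 and 93.5 after erlotinib and 132 and 152 after osimertinib. The H1650 libraries held 176 and 171 CPM at T0, 51.0 and 56.1 after erlotinib and 119 and 111 after osimertinib. It rose 5.55-fold and 8.11-fold in PC9 (log2 2.47 ± 0.09 and 3.02 ± 0.09, adjusted p = 6.42e-19 and 8.1e-21). In H1650 it fell 3.24-fold and 1.51-fold (log2 -1.70 ± 0.08 and -0.59 ± 0.08, adjusted p = 3.97e-15 and 9.06e-07). PC9, the lower of the lines at T0, thus had the higher KRT16 values in both drug groups, a comparison across drug groups that was not tested.

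The difference between the lines in the KRT16 change was -4.17 ± 0.13 on the log2 scale for erlotinib (adjusted p = 1.22e-19) and -3.61 ± 0.12 for osimertinib (adjusted p = 8.27e-19), H1650 minus PC9. KRT16 and its pseudogenes are near copies, and 6 KRT16 pseudogene rows held 0.863% as many reads as KRT16. Adding those reads kept the calls of KRT16.

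KRT17, a type I stress keratin also made in embryonic and basal-like epithelia, was at 28.5 and 27.8 CPM in PC9 at T0, 129 and 124 after erlotinib and 399 and 439 after osimertinib. The 3 PC9 groups were well apart, with T0 lowest and osimertinib highest. H1650 stayed at 4.66 and 3.74 CPM at T0, 4.44 and 3.72 after erlotinib and 3.96 and 3.39 after osimertinib, with all 3 groups overlapping. It rose 4.49-fold and 14.9-fold in PC9 (log2 2.17 ± 0.09 and 3.90 ± 0.09, adjusted p = 3.58e-18 and 3.98e-23). In H1650 the log2 values were -0.04 ± 0.16 (95% interval -0.36 to 0.29) and -0.19 ± 0.16 (-0.52 to 0.14). The difference between the lines was -2.20 ± 0.18 for erlotinib (adjusted p = 6.59e-11) and -4.08 ± 0.19 for osimertinib (adjusted p = 2.58e-16).

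Because KRT6A fell while KRT16 rose in PC9, their per-kb ratio crossed 1. It was 19.2 and 19.6 in the PC9 T0 libraries, 0.151 and 0.184 after erlotinib and 0.156 and 0.138 after osimertinib. In H1650 it was 0.107 and 0.114 at T0, 0.020 and 0.035 after erlotinib and 0.021 and 0.023 after osimertinib. The summed stress class in PC9 was the sum of both movements, at 461 ± 4.51 CPM at T0, 243 ± 7.71 after erlotinib and 586 ± 42.4 after osimertinib (SD, n = 2). In H1650 it was 213 ± 2.84, 59.6 ± 4.04 and 122.5 ± 5.76 CPM (SD, n = 2).

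**Figure D3:**
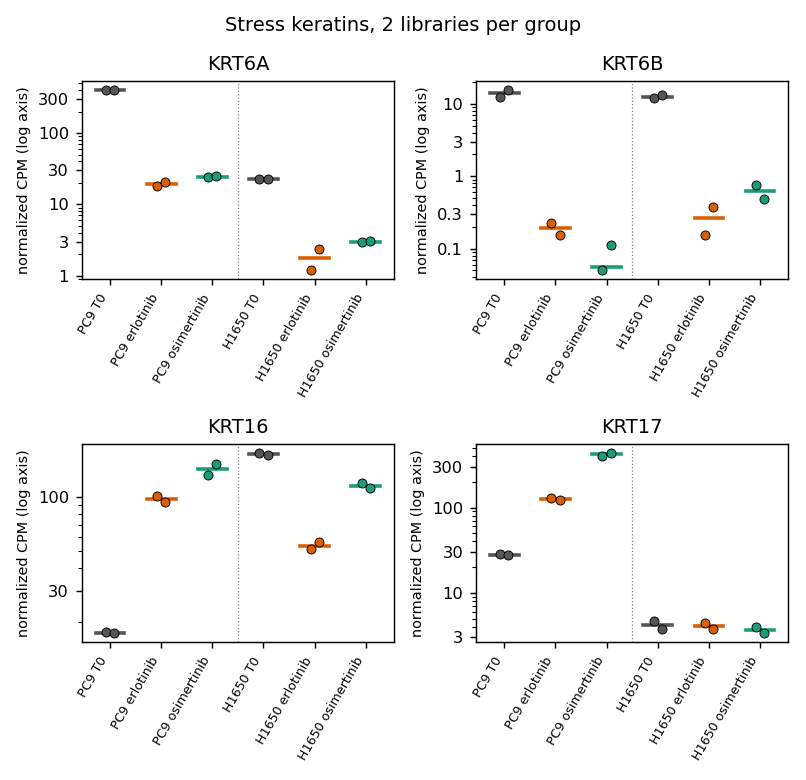
Normalized CPM of KRT6A, KRT6B, KRT16 and KRT17 (log axis) in the 6 groups; points are libraries, the line the mean of 2, and values under 0.05 CPM are drawn at 0.05. KRT6A and KRT6B are lower with drug in both lines, while KRT16 and KRT17 are higher with drug in PC9 only; KRT16 is lower and KRT17 overlaps with T0 in H1650.

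Among the basal keratins KRT15 rose in all 4 comparisons, and KRT5 fell in PC9. KRT15, a type I keratin of basal cells, was at 13.5 and 12 CPM in PC9 at T0, 28.6 and 24.9 after erlotinib and 42.9 and 42.8 after osimertinib. H1650 libraries were at 22.7 and 26.7 CPM at T0, 41.9 and 38.3 after erlotinib and 77.1 and 71.4 after osimertinib. Both lines thus stood in the same order, T0 lowest and osimertinib highest, with no overlap. The changes were 2.10-fold and 3.36-fold in PC9 (adjusted p = 2.76e-09 and 6.41e-14) and 1.62-fold and 3.0-fold in H1650 (adjusted p = 3.34e-06 and 8.63e-13). The difference between the lines was not called for either drug (log2 -0.37 ± 0.15, adjusted p = 0.0504, and -0.16 ± 0.15, adjusted p = 0.412).

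KRT5, the type II chain of basal cells, was at 107 and 97.8 CPM in PC9 at T0, 38.0 and 38.5 after erlotinib and 49.8 and 60.5 after osimertinib. It fell 2.67-fold and 1.86-fold (log2 -1.42 ± 0.10 and -0.89 ± 0.10, adjusted p = 9.71e-13 and 8.14e-09). H1650 had 4.43 and 5.94 CPM at T0, 3.92 and 3.86 after erlotinib (log2 -0.43 ± 0.17, adjusted p = 0.0545) and 7.06 and 7.79 after osimertinib (log2 0.51 ± 0.15, adjusted p = 0.0101). The H1650 osimertinib call was lost without H1650 T0 replicate 1 (0.32) or osimertinib replicate 2 (0.43), and the erlotinib value became a call without H1650 T0 replicate 1 (-0.61) or either PC9 osimertinib library (-0.43). The lines differed in the KRT5 change for both drugs (log2 0.99 ± 0.20 and 1.40 ± 0.18, adjusted p = 0.000219 and 3.15e-07).

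KRT14, the usual type I partner of KRT5, had 7 to 52 reads per library and at most 2.92 CPM. It was at 0.60 and 1.18 CPM in PC9 at T0, 0.99 and 0.66 after erlotinib and 1.16 and 2.92 after osimertinib. The osimertinib difference in PC9 was called (log2 1.16 ± 0.47, adjusted p = 0.0336) although the groups overlap, and it was 0.36 without PC9 osimertinib replicate 2 and 0.75 without PC9 T0 replicate 1, neither of them called. The coding sequences of KRT14 and the far more abundant KRT16 are 85.05% identical, and whether KRT16 reads were counted for KRT14 was not tested. KRT5 was 11.3 to 96.4 times KRT14 per kb in PC9 libraries and 3.46 to 6.47 times in those of H1650. KRT14 thus stood below KRT5 in every library, and per kb also below KRT15.

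Of the suprabasal and site-specific keratins, KRT4 rose with both drugs in both lines. It had 4 and 5 reads in PC9 at T0, 112 and 160 after erlotinib and 283 and 226 after osimertinib, or 0.20 and 0.25, 5.02 and 6.25, and 13.1 and 12.7 CPM. The rise was 24.5-fold and 56.0-fold (log2 4.62 ± 0.44 and 5.81 ± 0.41, adjusted p = 4.32e-10 and 7.58e-13). In H1650 it had 9 and 1 reads at T0, 25 and 45 after erlotinib and 23 and 12 after osimertinib, with log2 values of 2.97 ± 0.52 (adjusted p = 3.93e-05) and 1.90 ± 0.59 (adjusted p = 0.0126). The H1650 sizes rest on single T0 libraries: without T0 replicate 1 they were 5.27 and 4.20, and without T0 replicate 2 they were 2.01 and 0.94. The last of these was not called, nor was the osimertinib value of 1.31 without H1650 osimertinib replicate 1.

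KRT13, its type I partner, was at 380.5 and 367 CPM in PC9 at T0, 501 and 499 after erlotinib and 758 and 812.5 after osimertinib. It rose 1.34-fold and 2.10-fold there (log2 0.42 ± 0.07 and 1.07 ± 0.07, adjusted p = 1.37e-05 and 4.06e-13). In H1650 KRT13 had 0 to 4 reads in every library. The per-kb ratio of KRT4 to KRT13 in PC9 was 0.000537 to 0.000681 at T0, 0.010 to 0.013 after erlotinib and 0.016 to 0.017 after osimertinib, so the type II partner stayed far below the type I one.

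KRT10, a keratin of differentiating epidermis, was at 38.5 and 29.4 CPM in PC9 at T0 and 21.6 and 22.2 after osimertinib, a fall of 0.63 on the log2 scale (SE 0.13, adjusted p = 0.000108), and was not called in the other 3 drug comparisons. It shares 56 exon bases with TMEM99 on the opposite strand. KRT9, a keratin of palm and sole epidermis, had 10 to 152 reads per library. It was at 0.50 and 0.64 CPM in PC9 at T0 and 1.06 and 2.07 after osimertinib (log2 1.42 ± 0.44, adjusted p = 0.00625), a call that was lost without PC9 osimertinib replicate 2 (0.88) or PC9 T0 replicate 1 (1.25). H1650 had 3.45 and 5.86 CPM at T0 and 1.5 and 1.82 after erlotinib (log2 -1.49 ± 0.32, adjusted p = 0.000418). KRT78 had 26 and 27 reads in PC9 at T0, 1 and 4 after erlotinib and 4 and 3 after osimertinib, and none in H1650. Its T0 to erlotinib ratio scaled to depth was 12.7 (95% counting interval 5.10 to 40.6), and its fitted log2 values were -3.60 ± 0.74 (adjusted p = 0.000155), or -4.71 without PC9 erlotinib replicate 2, and -2.86 ± 0.70 (adjusted p = 0.00103).

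KRT80, a type II keratin found in many epithelia, was at 268 and 271 CPM in PC9 at T0, 285 and 281 after erlotinib and 364 and 376 after osimertinib. H1650 libraries held 498 and 462 CPM at T0, 241 and 247 after erlotinib and 251 and 227 after osimertinib. It rose in PC9 with osimertinib (log2 0.46 ± 0.07, adjusted p = 1.93e-06) and was not called with erlotinib (0.07 ± 0.07, adjusted p = 0.398). In H1650 it fell by 0.98 and 1.01 on the log2 scale (SE 0.07 each, adjusted p = 1.09e-11 and 6.93e-12). As for KRT7, the lines differed for both drugs, by -1.05 ± 0.10 and -1.47 ± 0.10 (adjusted p = 1.01e-09 and 1e-12).

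**Figure D4:**
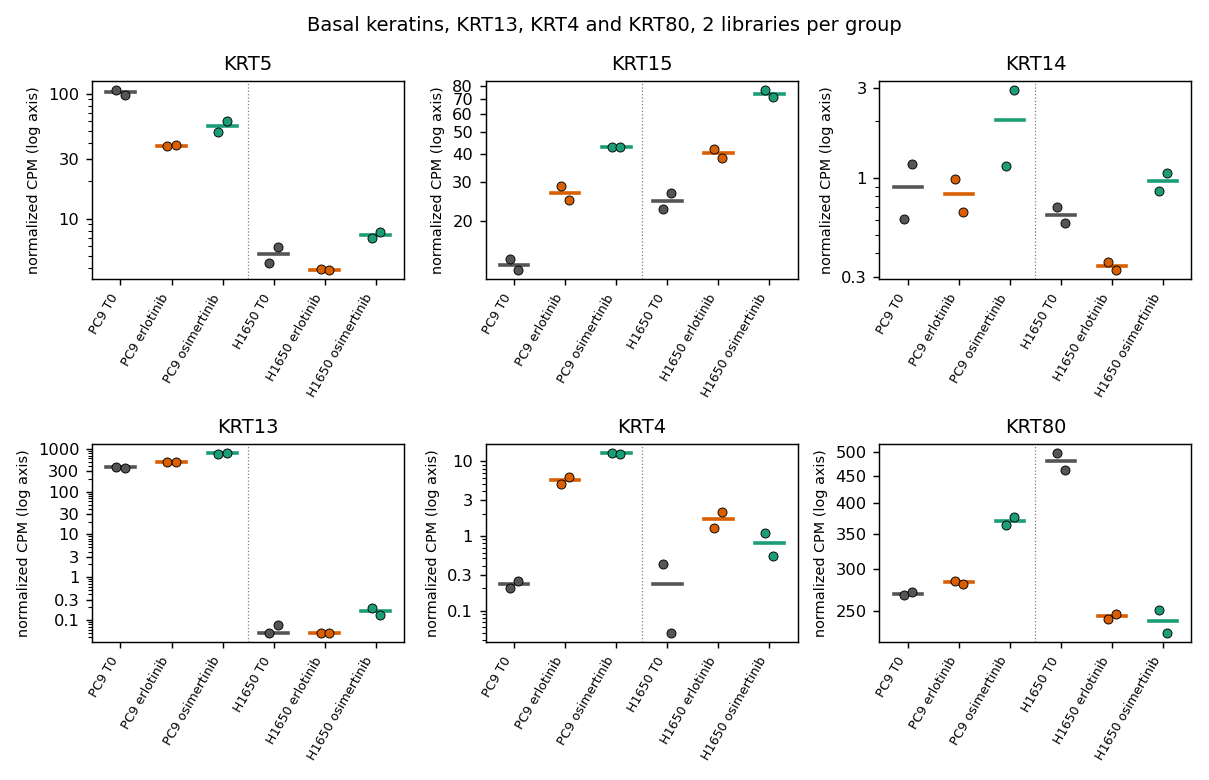
Normalized CPM of KRT5, KRT15, KRT14, KRT13, KRT4 and KRT80 (log axis, scaled per panel) in the 6 groups; points are libraries, the line the mean of 2, and values under 0.05 CPM are drawn at 0.05. KRT15 and KRT4 are above T0 with each drug in both lines, and KRT13 is at 367 CPM or more in all PC9 libraries and under 0.2 CPM in all H1650 libraries.

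The hair keratins were low. KRT86, a type II hair shaft keratin, was at 1.16 and 0.89 CPM in PC9 at T0, 4.39 and 5.50 after erlotinib and 4.07 and 3.92 after osimertinib (log2 2.27 ± 0.31 and 1.96 ± 0.31, adjusted p = 2.45e-07 and 3.99e-06), and was not called in H1650 (0.76 ± 0.43 and 0.95 ± 0.41). KRT81 was at 0.13 to 3.58 CPM and was not called in any drug comparison (adjusted p = 0.0543 and 0.0711 in H1650). With a replicate block it was called in H1650 with both drugs (-1.62 and -1.48, adjusted p = 0.0191 and 0.0269), as it was without a filter on low counts. In H1650, where its T0 libraries were at 1.45 and 0.35 CPM, the values of -1.65 and -1.5 rested on single libraries. They were -0.36 and -0.21 without H1650 T0 replicate 1, and -2.40 and -2.25, both called, without replicate 2. The coding sequences of KRT81 and KRT86 are 89.6% identical. KRT32 had at most 16 reads and KRT34 and KRT83 at most 19 and 17. KRT32 was lower with both drugs in PC9 and KRT83 higher with osimertinib there, and KRT34 was not called with drug.

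**Figure D5:**
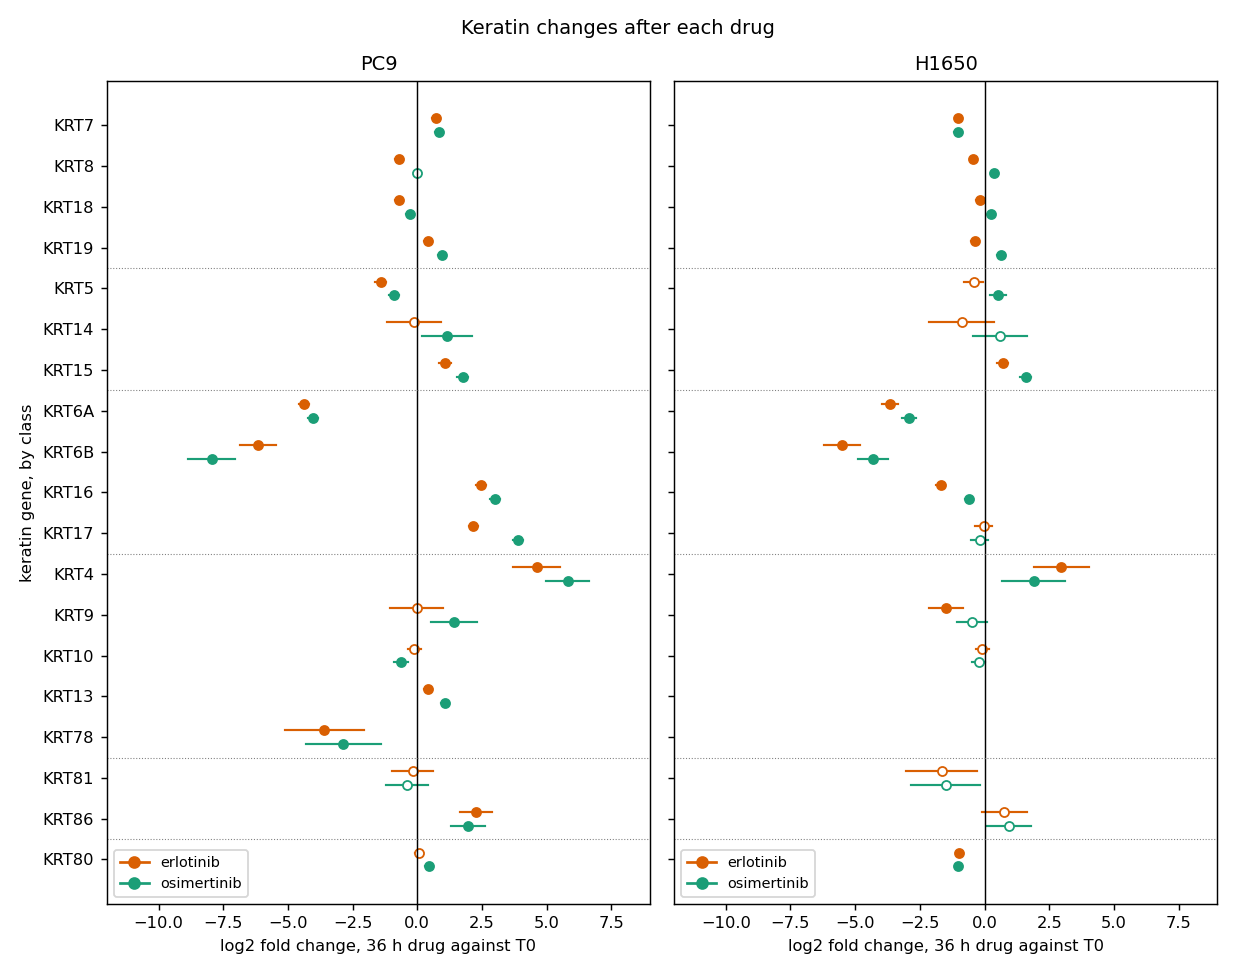
Log2 fold change of each described keratin after 36 h of drug against T0 in PC9 (left) and H1650 (right), with 95% intervals; filled points are called at an adjusted p under 0.05, and no point is drawn where fewer than 10 reads stood behind a comparison. KRT6A and KRT6B lie far left in both panels, and KRT7 and KRT16 lie right of 0 in PC9 and left of it in H1650.

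Across the 22 tested keratins, 2 were higher in all 4 drug comparisons (KRT4 and KRT15) and 2 lower in all 4 (KRT6A and KRT6B). KRT7 and KRT16 were higher with both drugs in PC9 and lower with both in H1650. Of all genes tested 8.47% were higher in all 4, 9.16% lower in all 4 and 1.33% higher with both drugs in PC9 and lower with both in H1650. In all 20 of the 22 keratins were called in at least 1 comparison, beside 77.0% of all genes, and 2 (KRT34 and KRT81) in none, KRT81 being called in H1650 with a replicate block. The KRT4 values in H1650 rested on single libraries, as given above. By size, 0 of the 4 tested simple keratins and all 4 tested stress keratins passed a 2-fold change in PC9 with each drug, beside 30.8% and 31.2% of all genes. In H1650 1 of 4 simple and 3 of 4 stress keratins passed it with erlotinib, and 1 and 2 with osimertinib, beside 8.12% and 7.3% of all genes.

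The change from T0 differed between the lines for 11 of the 22 tested keratins with erlotinib, 5 higher and 6 lower in H1650 (all genes 40.8% called, 21.1% higher and 19.8% lower). With osimertinib 12 differed, 5 higher and 7 lower (all genes 41.9%, 21.5% higher and 20.5% lower). The simple keratins were among them with both drugs. The log2 change in H1650 minus that in PC9 was below 0 for KRT7 and KRT19 and above 0 for KRT8 and KRT18 with each drug, a signed difference that does not rank the sizes of the changes. The KRT8 difference with erlotinib (0.27) kept its call only without H1650 T0 replicate 1 or H1650 erlotinib replicate 2 among the 8 libraries compared, and was 0.22 to 0.27 without each of the other 6. The KRT19 difference with osimertinib (-0.32) was -0.28 to -0.22 and not called without PC9 T0 replicate 2, PC9 osimertinib replicate 2, H1650 T0 replicate 1 or H1650 osimertinib replicate 2.

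The drugs were also set against each other within each line, at 10 µM erlotinib and 0.1 µM osimertinib and the same time. In PC9 13 of 22 tested keratins differed, 12 higher with osimertinib and 1 (KRT10) lower, beside 16.6% of all genes called (10.1% higher, 6.41% lower). The KRT10 call was lost without PC9 erlotinib replicate 1 (-0.36) or PC9 osimertinib replicate 1 (-0.49). Among the 12 higher calls KRT6A was lost without PC9 erlotinib replicate 1 (0.27) or osimertinib replicate 1 (0.37) or 2 (0.34), and KRT9 without PC9 erlotinib replicate 1 (1.48) or 2 (1.39) or osimertinib replicate 2 (0.91). In H1650 7 differed, all higher with osimertinib, beside 8.75% of all genes (5.02% higher, 3.73% lower). KRT6A lost its call there without H1650 erlotinib replicate 1 (0.36) or osimertinib replicate 1 (0.77) or 2 (0.73). The median log2 difference of the tested keratins was 0.51 in PC9 and 0.31 in H1650, against 0.00 and 0 over all genes.

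Among the called keratins KRT17 differed most between the drugs in PC9, 3.31-fold higher with osimertinib (log2 1.73 ± 0.08, adjusted p = 2.13e-15). In H1650 the KRT17 difference was -0.15 ± 0.17 (95% interval -0.49 to 0.19). KRT8 was higher with osimertinib by 0.71 ± 0.07 in PC9 (adjusted p = 1.11e-08) and 0.81 ± 0.07 in H1650 (adjusted p = 1.86e-09). KRT19 was higher by 0.54 ± 0.07 and 1.00 ± 0.07 (adjusted p = 4.37e-06 and 1.78e-10), and KRT15 by 0.68 ± 0.10 and 0.89 ± 0.10 (adjusted p = 1.33e-05 and 1.65e-07). KRT16 was higher by 0.55 ± 0.08 and 1.10 ± 0.08 (adjusted p = 1.17e-05 and 1.92e-10). For KRT7 the difference was small in both lines, 0.11 (95% interval -0.04 to 0.26) and -0.02 (-0.17 to 0.13).

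Keratins are anchored at desmosomes, which join neighbouring cells, and at hemidesmosomes, which join cells to the basement membrane. Of 14 desmosome genes 11 were tested (DSG1, DSG4 and DSC1 were not). In the order PC9 erlotinib, PC9 osimertinib, H1650 erlotinib and H1650 osimertinib, 2, 3, 0 and 2 rose and 5, 4, 5 and 6 fell, with median log2 changes of -0.04, -0.00, -0.22 and -0.27. Over all genes tested 32.7%, 32.7%, 18% and 17.8% rose and 29.1%, 28.7%, 18.5% and 17.9% fell in these comparisons. PKP1, a plakophilin that binds keratins at the desmosome, fell in PC9 by 2.36 (SE 0.18) and 1.52 (SE 0.17) on the log2 scale, and was not called in H1650. JUP, the desmosomal plakoglobin, rose in PC9 (0.61 ± 0.08 and 1.07 ± 0.08), and PKP3 fell in all 4 comparisons, by 0.43 to 0.72 on the log2 scale.

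All 10 genes of hemidesmosomes and keratin linkers were tested, of which 2, 3, 0 and 0 rose and 5, 4, 7 and 3 fell in the same order, with medians of -0.15, -0.06, -0.43 and -0.10, beside 61.8%, 61.4%, 36.5% and 35.7% of all genes called in either direction. ITGA6, the integrin chain that pairs with ITGB4 in hemidesmosomes, fell by 5.10 (SE 0.08) and 5.51 (SE 0.09) on the log2 scale in PC9 and by 0.51 (SE 0.07) with erlotinib in H1650. COL17A1, the hemidesmosomal collagen, fell in PC9 by 1.56 (SE 0.08) and 0.45 (SE 0.08) and with erlotinib in H1650 by 0.49 (SE 0.07). DST, the linker of keratin to hemidesmosomes, rose in PC9 (0.70 ± 0.09 and 0.96 ± 0.09) and fell in H1650 by 0.58 and 0.32 (SE 0.09 each).

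None of the tested genes of other intermediate filaments rose. Of 13 listed 8 were tested, and all 8 fell in PC9 with each drug, beside 29.1% and 28.7% of all genes, while 6 fell with erlotinib and 4 with osimertinib in H1650, beside 18.5% and 17.9%. VIM, the vimentin of mesenchymal cells, was at 19.0 CPM in PC9 at T0 and 2.58 and 4.86 after the drugs, and at 45.3, 9.81 and 15.5 CPM in H1650. LMNB1, a lamin of the nuclear envelope, fell by 3.40 and 3.03 on the log2 scale in PC9 (SE 0.08 each) and by 0.28 and 0.35 in H1650 (SE 0.07 each). NES, nestin, was at 23.2, 5.53 and 7.37 CPM in PC9 and at most 0.50 CPM in H1650.

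Of 14 cornified envelope genes, which encode the protein coat of terminally differentiated keratinocytes, 13 were in the table and 10 were tested. In the same order 4, 4, 2 and 3 rose and 4, 4, 1 and 0 fell, with medians of -0.29, 1.00, 0.03 and 0.30, again beside 61.8%, 61.4%, 36.5% and 35.7% of all genes called. TGM5, a transglutaminase that cross-links the envelope, was at 1.65 CPM in PC9 at T0 and 0.039 and 0.17 after the drugs, and at 0.28, 2.05 and 6.77 CPM in H1650. It rose in H1650 by 2.87 ± 0.48 and 4.59 ± 0.43 on the log2 scale. SPRR1B, a small proline-rich envelope protein, was at 2.67 CPM in PC9 at T0 and at 0 and 0.028 after the drugs. In H1650 it was at 1.78, 0.73 and 1.41 CPM, called lower with erlotinib (log2 -1.25 ± 0.46, adjusted p = 0.0334) and not with osimertinib. SPRR1A was at 0.97, 0.020 and 0.028 CPM in PC9 and at 0.085, 0.070 and 0.045 CPM in H1650, with no call in H1650. These 3 genes were named by size of change and do not stand for the list. All 3 fell in PC9 from 2.67 CPM or less, while 4 of the 10 tested rose there with each drug.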

How the data were processed

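Polyadenylated RNA from PC9 and H1650 cells was sequenced by the authors, who deposited a table of whole-number read counts per gene, not normalized, with gene lengths, in a file named for the counter featureCounts (its version and settings are not given in the sources used here). Per the labels' list the build was GRCh38 and DESeq2 was used. The aligner, its version, the annotation release and the strand setting are not given in the sources used here. Groups came from the labels. The counts were normalized by TMM, filtered with filterByExpr by group (19108 of 60591 genes kept) and fitted in edgeR 4.0.16 (R 4.3.3) with 6 group means, glmQLFit and glmQLFTest. The common biological coefficient of variation was 0.0656. Normalized CPM used TMM-scaled library sizes. Ratios of few reads carry exact 95% binomial intervals, which, without molecular identifiers, cover counting error only. No fold change is given where fewer than 10 reads stood behind it. The keratins described with values were the tested simple, basal and stress keratins and other tested ones with a group mean of at least 1 CPM. Of each partner list the 3 called genes with the largest mean size of change over the 4 drug comparisons were named. The keratins, classes, partner lists and markers were chosen with earlier results of these data known. Pairwise identities came from GENCODE 29 coding sequences aligned with Biopython 1.88, in place of proteins. The table's gene length matched the GENCODE 29 exon union for 20 of 55 keratins.

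Alternatives were DESeq2 1.42.0, RLE and upper quartile scaling, no filter, at least 10 counts in every library, 1 fit per line, a replicate block, added pseudogene reads and each library left out. On simulated counts edgeR recovered 182 of 200 genes changed by 1 on the log2 scale, with 10 false calls among 17855 genes, for the PC9 erlotinib comparison, and 153 of 200 with 15 false calls for the line difference with erlotinib. The changed genes were drawn from those with higher counts and were far fewer than the genes called in the real data. Recovery was thus not measured for keratins with few reads, such as KRT14 and KRT78. Replicates differed by more than counting noise (chi-square per degree of freedom 4.02 to 7.13), so none was counted as a duplicate.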

Additional observations from a re-analysis of the deposited data

Results flagged for a closer look

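The change after drug differed between the lines for 11 of the 22 tested keratins with erlotinib, beside 40.8% of all genes. The interaction term (H1650 change minus PC9 change, log2) was called at an adjusted p under 0.05 by edgeR's quasi-likelihood test. It was -4.17 for KRT16, -2.20 for KRT17, -1.73 for KRT7, -1.51 for KRT86, -1.05 for KRT80, -0.77 for KRT19, 0.27 for KRT8, 0.53 for KRT18, 0.72 for KRT6A, 0.99 for KRT5 and 3.56 for KRT32. The KRT6A value was 0.15 and not called without H1650 erlotinib replicate 2. The KRT8 call was lost without each of the 8 libraries compared other than H1650 T0 replicate 1 and H1650 erlotinib replicate 2 (0.22 to 0.27), and the KRT86 call without PC9 T0 replicate 2, PC9 erlotinib replicate 2, either H1650 T0 library or H1650 erlotinib replicate 1 (-1.58 to -1.25). KRT32 had at most 16 reads in a library.

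With osimertinib the same term was called for 12 of the 22 tested keratins, beside 41.9% of all genes. It was -4.08 for KRT17, -3.91 for KRT4, -3.61 for KRT16, -1.90 for KRT9, -1.86 for KRT7, -1.47 for KRT80, -0.32 for KRT19, 0.37 for KRT8, 0.54 for KRT18, 1.11 for KRT6A, 1.40 for KRT5 and 3.63 for KRT6B. Leaving out H1650 T0 replicate 1 brought KRT4 to -1.60, leaving out PC9 osimertinib replicate 2 brought KRT9 to -1.37, and leaving out PC9 T0 replicate 2, PC9 osimertinib replicate 2, H1650 T0 replicate 1 or H1650 osimertinib replicate 2 brought KRT19 to between -0.28 and -0.22, none of them called. The KRT6B value was 2.57 without PC9 osimertinib replicate 1 and 6.94 without replicate 2, which held the 2 reads of that group.

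Rows of keratin pseudogenes, outside the rule for members, were called higher than at T0 in 8 cases and lower in 5, over 15 rows tested in each of the 4 drug comparisons, beside 61.8%, 61.4%, 36.5% and 35.7% of all genes called. KRT89P rose in PC9 by 4.58 ± 0.89 with erlotinib and 5.38 ± 0.83 with osimertinib, from a T0 level of only 0.025 CPM. In H1650 its values were -2.45 and -2.30, both called. KRT87P rose with osimertinib by 1.60 in PC9 and 0.89 in H1650, and shares 32 exon bases with KRT7 on the opposite strand. In H1650 KRT16P2 rose by 2.76 with erlotinib, KRT16P6 by 2.62 with erlotinib and 3.19 with osimertinib, and KRT8P3 by 0.58 with osimertinib, all on the log2 scale. KRT16P2 and KRT16P6 had 74 and 138 reads in all 12 libraries together. Their H1650 T0 levels were 0.089 and 0.17 CPM, so these sizes rest on few reads. In PC9 KRT8P3 was lower with erlotinib (-0.87), and KRT8P12 was lower with erlotinib (-0.45) and osimertinib (-0.57).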

How the results depend on the processing

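A filter of 10 or more reads in every library took KRT4, KRT6B, KRT13, KRT14, KRT32, KRT34, KRT78, KRT81 and KRT83 out of the test. The count of tested keratins called stayed within 1.5 times in all 9 comparisons under each alternative run, with 1 exception. For 1 fit per line, only the 6 comparisons within a line could be run. The exception was that filter, which left 12 calls for PC9 osimertinib against T0 (19 as reported), where fewer keratins are tested. With 1 library left out that count ran from 16 to 19, and from 14 to 15 for PC9 erlotinib, 10 to 13 for H1650 erlotinib, 10 to 11 for H1650 osimertinib, 8 to 12 and 10 to 13 for the line differences, 10 to 14 and 6 to 8 for osimertinib against erlotinib in PC9 and H1650, and 15 to 17 for the lines at T0. Of 993 fold changes of described keratins under settings other than a left-out library, 970 kept direction and call, 5 lost a call, 11 gained one and 7 changed sign, none of the last being called. The sign changes were KRT9 in PC9 with erlotinib (0.0645 with upper quartile scaling and 0.0229 with the stricter filter), KRT8 in PC9 with osimertinib (-0.00589 with DESeq2, -0.00488 with RLE, -0.0794 without filter, -0.0553 with 1 fit per line) and KRT17 in H1650 with erlotinib (0.10 with pseudogene reads). DESeq2 took the call from KRT14 in PC9 with osimertinib (1.16), from KRT86 at T0 (-1.09) and from the KRT86 line difference with erlotinib (-1.51), upper quartile scaling from the KRT8 line difference with erlotinib (0.19), and 1 fit per line from KRT6A between drugs in H1650 (0.74).

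With 1 library left out, values that changed sign ran from -0.19 to 0.15 for KRT9, -0.31 to 0.0777 for KRT10, -0.54 to 0.43 for KRT14 and -0.49 to 0.0763 for KRT81 in PC9 with erlotinib, and from -0.0539 to 0.0594 for KRT8 in PC9 with osimertinib. In H1650 with erlotinib KRT10 ran from -0.22 to 0.0409 and KRT17 from -0.20 to 0.12. Between the lines at T0 KRT4 ran from -2.39 to 0.886, KRT6B from -0.31 to 0.0168 and KRT14 from -0.896 to 0.0696, and KRT10 lost its call without PC9 T0 replicate 2 (0.20) or H1650 T0 replicate 1 (0.26). KRT86 lost its call at T0 without PC9 T0 replicate 1 (-0.87), H1650 T0 replicate 1 (-1.15) or H1650 T0 replicate 2 (-0.99). The cause of these changes was not tested.

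Differences between replicates 1 and 2 were partly shared by the groups. Over 15 pairs of groups their correlation ran from 0.003 to 0.470, with a median of 0.240 and 13 over 0.1. The fit as reported held no term for the replicate. Between the drugs, 4166 genes in PC9 and 2670 in H1650 were called with a replicate block, against 3163 and 1672 as reported. With the replicate block no count of called keratins moved by over 1.5 times, and KRT5 with erlotinib (-0.43), KRT10 with osimertinib (-0.23) and KRT81 with both drugs (-1.62 and -1.48) gained a call in H1650.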
